A study of Mus musculus with 48 samples.

Results

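Wild-type (WT) preadipocytes late in adipogenesis were compared between day 6 and day 9 of culture, with 3 RNA-seq libraries on each day and 6 of the 48 libraries of the series in all. The members were chosen by their labels alone: genotype WT, preadipocytes, day 6 or day 9. The study compared WT mice with mice that lack both HMGN1 and HMGN2, proteins that bind nucleosomes (DKO), in preadipocytes of days 0, 3, 6 and 9 and in mouse embryonic fibroblasts (MEFs) of days 0, 4, 8 and 12, with 3 libraries for each genotype, cell type and day. The preadipocytes came from the inguinal white fat (iWAT) of C57BL/6 mice aged 8 to 12 weeks. Differentiation medium with 0.5 µg/ml insulin, 5 µM dexamethasone, 0.5 mM IBMX, 1 nM T3 and 1 µM rosiglitazone was given for 4 days and was followed by maintenance medium with insulin and T3 for 4 days. Both days compared here therefore lay after the withdrawal of dexamethasone, IBMX and rosiglitazone, and day 9 lay past the stated end of the maintenance period. The WT MEFs used for comparison at days 8 and 12 had the same inducers for 8 days before the maintenance medium, so that their day 8 to day 12 step was the step out of differentiation medium. The sources used here do not say whether the 3 libraries of a group came from separate animals or dishes beyond calling them biological replicates, so the p-values measure the spread between these libraries.

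Adipogenesis begins when fibroblast-like progenitors answer insulin, a glucocorticoid and cyclic AMP with a short round of division and then with the factors C/EBP and PPARγ, which switch on genes for lipid storage and adipokines. Progenitor, matrix and contractile genes are turned down along the way, and the thyroid hormone T3 and the PPARγ ligand rosiglitazone push inguinal cells towards the beige state, in which UCP1 uncouples respiration to make heat. Cyclic AMP, raised by IBMX because it blocks phosphodiesterases, acts through CREB on genes such as Dio2, Nr4a3 and Pde4b.

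The 6 libraries held 19809356 to 27052150 estimated counts, with 24974448 to 27052150 on day 6 and 19809356 to 24021937 on day 9. Their levels are given in CPM (counts scaled to an equal library total) on 1 scale for all WT preadipocyte libraries, and a gene was called where edgeR's adjusted p was below 0.05 and the fold change was at least 1.5. The 10 most abundant genes took 10.58 to 11.37% of the counts on day 6 and 12.1 to 12.47% on day 9. Replicate 1 stood apart from the other 2 libraries of its day in Acta2 and in macrophage markers. Its Acta2, a smooth muscle actin, was at 122 CPM on day 6 and 127 CPM on day 9, against 13.1 to 33.2 CPM in the other 4 libraries, and its summed macrophage markers were the lowest of each day. No library was a copy of another, since the chi-square per degree of freedom between libraries of a day was 6.89 to 35.7. On day 6 it was 35.7 for replicates 1 and 2, 17 for 1 and 3, and 16 for 2 and 3. The day 9 values of the same pairs were 16.7, 11.4 and 6.89. Over all genes, replicate 1 was thus the most distant library on day 9 but not clearly so on day 6. In bulk samples such as these, fewer cells of a type and less RNA per cell cannot be told apart.

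Between day 6 and day 9 most cell cycle and chemokine genes fell, lipogenic genes and adipokines rose more often than they fell, and both collagen I chains and 8 of 19 progenitor markers rose, while Pparg and Adipoq were not called. Of 14963 genes tested, 1675 (11.2%) rose and 908 (6.07%) fell, and the median log2 fold change over all genes was 0.00. The counts of calls given for each gene list below stand beside these shares. The libraries of the 2 days did not overlap for 7610 genes (50.9%). Apart from 33 fixed genes, the genes named by rule below had to show no such overlap, so its absence there adds no support. Of the called genes, 971 higher and 444 lower changed by at least 2-fold, 291 and 106 by at least 4-fold, and 100 and 23 by at least 8-fold. Protein-coding genes made up 2344 of the 2583 called genes.

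**Figure D1:**
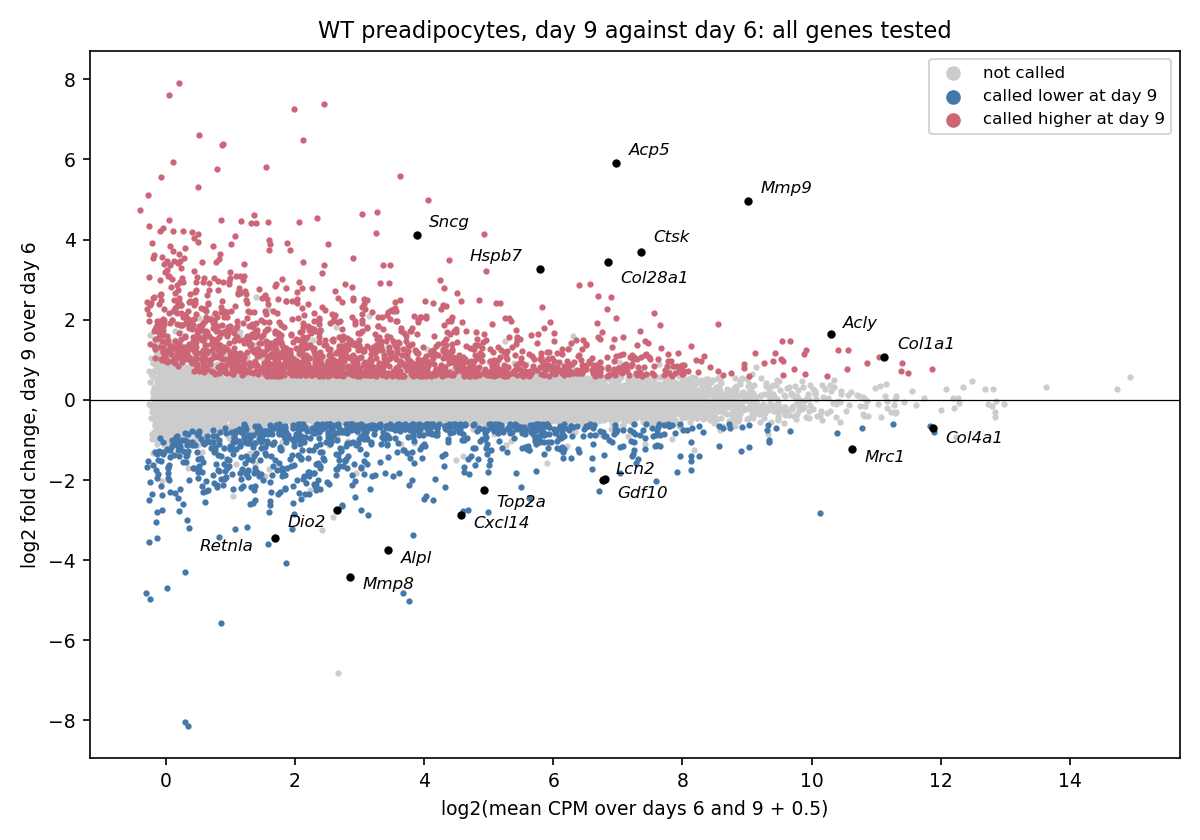
Log2 fold change between day 9 and day 6 (vertical axis) against log2 of the mean level in CPM plus 0.5 (horizontal axis) for all 14963 genes tested in WT preadipocytes, 1 point a gene, with the 1675 genes called higher in red, the 908 called lower in blue and the others in grey. The labelled genes run from Acp5 at 5.90 and Mmp9 at 4.96 to Mmp8 at -4.41, and the most abundant genes lie close to 0.

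The smallest p-values in each direction included matrix, heat shock and secreted factor genes. Col28a1, which encodes a beaded-filament collagen known from nerve and skin, was at 21.8, 18.9 and 18 CPM in the 3 libraries of day 6 and at 226, 202 and 199 CPM in those of day 9. Its level rose 10.8-fold (log2 fold change 3.43, SE 0.09, edgeR adjusted p = 1.05e-06, mm10 chromosome 6, 7997808 to 8192617, minus strand). Hspb7, a small heat shock protein of muscle, went from 11.7, 9.7 and 9.81 CPM to 105, 89.3 and 105 CPM, a 9.63-fold rise (log2 fold change 3.27, SE 0.10, adjusted p = 1.68e-06). Gdf10, a secreted factor of the TGF-β family, went the other way, from 178, 169.5 and 183 CPM to 46.2, 40.9 and 47.3 CPM (log2 fold change -1.97, SE 0.07, adjusted p = 2.94e-06). Noct, a clock-controlled dinucleotide phosphatase, fell 2.46-fold from a mean of 101 ± 6.61 CPM to 40.7 ± 1.82 CPM (SD, n = 3). Among the largest falls, Mmp8, a collagenase best known from neutrophils, dropped from 10.3, 13.4 and 15 CPM to 0.427, 0.709 and 0.634 CPM, and Alpl, the tissue-nonspecific alkaline phosphatase, from 22.8, 17.7 and 17.6 CPM to 1.5, 1.06 and 1.76 CPM. The log2 fold changes of these 2 genes were -4.41 and -3.75 (edgeR adjusted p = 1.2e-05 for each).

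Genes of the cell cycle and DNA replication fell together. Of 65 list members tested, 51 were called lower (against 6.07% of all genes) and 1, Brca1, was called higher. The list median was -1.49 on the log2 scale, beside 0.00 over all genes. Top2a, the topoisomerase that untangles chromosomes at mitosis, was at 54.9, 39.9 and 53.7 CPM on day 6 and at 12.7, 10.2 and 8.1 CPM on day 9, so that the lowest day 6 library was above every day 9 library (log2 fold change -2.26, SE 0.19, adjusted p = 0.000245). Mki67, which coats mitotic chromosomes and marks cycling cells, went from 45.3, 29.4 and 44.2 CPM to 11.5, 11 and 10.6 CPM (log2 fold change -1.84, SE 0.17, adjusted p = 0.000256). Pbk, a mitotic kinase, fell 9.3-fold, Hmmr, a spindle protein, 6.69-fold, Bub1, a spindle checkpoint kinase, 5.98-fold, and Ccnb2, a mitotic cyclin, 4.37-fold. The replication clamp Pcna fell less, from 80.0, 77.7 and 80.8 CPM to 46.2, 49 and 48.9 CPM (1.64-fold, adjusted p = 6.77e-05). The 13 members that were not called were mostly genes of the G1/S phase and of replication, among them Mcm6, Mcm7, Ccne1, Ccne2, E2f1, Rrm1 and Rrm2, the last of these with a log2 fold change of -0.13. The fall followed an earlier peak, since the mean level of Top2a was 101 CPM on day 0 and 216 CPM on day 3. Cell cycle inhibitors gave 3 calls, all higher, among 15 tested. Cdkn1a, which encodes the inhibitor p21, rose from 158, 211 and 183 CPM to 327, 332 and 351 CPM (log2 fold change 0.88, SE 0.10, adjusted p = 0.000319), and Txnip, a glucose-induced arrestin that binds thioredoxin, rose 1.57-fold to 1163 ± 40.9 CPM.

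The start regions of 3 of these genes are shown because the fallen cell cycle genes often carried the CCAAT box and the CHR (cell cycle genes homology region), elements known from genes of late cell cycle. Each is the 200 bases before the RefSeq start (build GRCm38.p6), 5′ to 3′ on the gene's own strand, with capitals for CHR (TTTGAA or TTCGAA) and CCAAT matches on either strand. They lie at chr11:99024190-99024389 for Top2a, chr7:135716380-135716579 for Mki67 and chr9:70421555-70421754 for Ccnb2, all on the minus strand.
Top2a: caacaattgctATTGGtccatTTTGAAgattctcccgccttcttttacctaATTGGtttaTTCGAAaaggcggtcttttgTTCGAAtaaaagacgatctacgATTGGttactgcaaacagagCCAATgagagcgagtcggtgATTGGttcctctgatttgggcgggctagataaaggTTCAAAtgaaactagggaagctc
Mki67: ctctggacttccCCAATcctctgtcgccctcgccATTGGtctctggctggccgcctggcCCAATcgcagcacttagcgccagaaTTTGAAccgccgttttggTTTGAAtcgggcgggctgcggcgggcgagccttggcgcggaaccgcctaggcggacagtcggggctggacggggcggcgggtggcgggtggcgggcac
Ccnb2: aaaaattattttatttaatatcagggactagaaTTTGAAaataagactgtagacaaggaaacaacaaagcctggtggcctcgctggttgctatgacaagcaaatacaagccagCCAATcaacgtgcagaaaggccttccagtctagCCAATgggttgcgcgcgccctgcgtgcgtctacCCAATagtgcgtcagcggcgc
Top2a held 4 CHR and 5 CCAAT matches in these bases, Mki67 held 2 and 3, and Ccnb2 held 1 and 3. In windows from 250 bases before to 50 bases after the start, CCAAT stood in 32 of 43 windows (74.4%) of the 40 fallen genes with an entry and in 37.4% of all 32851 windows, CHR in 25 (58.1%) and in 19.2%, and the E2F motifs TTTGGCGC or TTTCCCGC in 6 (14%) and in 1.56%. Both strands were searched, none of these motifs contains another, and a match is a description of the sequence and not a bound site. The shares among list members that did not fall were not taken, so these values describe cell cycle genes and not the fall.

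The 2 genes that the DKO mice lack also moved in the WT cells. Hmgn2, a nucleosome-binding protein of open chromatin, was at 109, 119 and 110.5 CPM on day 6 and at 41.3, 41 and 42 CPM on day 9, a 2.71-fold fall with no overlap (log2 fold change -1.44, SE 0.06, adjusted p = 6.59e-06). Its mean was 43.4 CPM on day 0 and 115 CPM on day 3. Hmgn1, its paralog, went from 118, 116 and 111 CPM to 82.4, 79.8 and 78.4 CPM, which passed the adjusted p (0.000275) but at 1.42-fold not the fold threshold. Of 9 tested HMG genes, 2 fell, Hmgn2 and Hmgb2 (1.74-fold), and 1 rose, Hmga1 (1.55-fold). Hmgn2, like the ribosomal protein genes, has processed copies in the genome between which the counting had to divide reads, so its level is less certain than that of a unique gene.

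Of 17 cyclic AMP-responsive genes tested, 7 fell (against 6.07% of all genes), 1 rose (Sik1, a kinase that restrains CREB coactivators, log2 fold change 0.64) and 9 were not called, with a list median of -0.30. Dio2, the deiodinase that makes T3 inside brown and beige adipocytes, was at 10.5, 9.03 and 10.7 CPM on day 6 and at 1.28, 1.37 and 1.8 CPM on day 9. The days stood far apart (6.71-fold lower, log2 fold change -2.75, SE 0.17, adjusted p = 1.91e-05), after a mean of 50.3 CPM on day 3 under the inducers. Pde4b, a phosphodiesterase that breaks down cyclic AMP, went from 34.9, 24.8 and 27.5 CPM to 6.36, 4.12 and 4.78 CPM (log2 fold change -2.51, SE 0.19, adjusted p = 6.98e-05). Nr4a3, an orphan nuclear receptor and immediate early gene, went from 5.42, 3.23 and 4.54 CPM to 0.962, 0.532 and 0.634 CPM (log2 fold change -2.63, SE 0.29, adjusted p = 0.000256). Nr4a1, Pde4d, Rgs2 and Ucp1 were the other fallen members. IBMX had been withdrawn before both days, so no library of this comparison was under it.

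The start regions of Dio2, Pde4b and Nr4a3 are shown because each holds the core of the cyclic AMP response element, TGACG or its complement CGTCA, in capitals. They are the 200 bases before the RefSeq start at chr12:90739039-90739238 on the minus strand for Dio2, chr4:102421355-102421554 on the plus strand for Pde4b (1 of its 4 starts) and chr4:48045105-48045304 on the plus strand for Nr4a3, in GRCm38.p6. For Pde4b the first of its starts with the core in its window was taken, so the core there follows from that choice.
Dio2: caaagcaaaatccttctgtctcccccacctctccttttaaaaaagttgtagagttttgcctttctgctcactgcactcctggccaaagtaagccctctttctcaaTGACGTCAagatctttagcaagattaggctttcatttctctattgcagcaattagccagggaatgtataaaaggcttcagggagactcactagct
Pde4b: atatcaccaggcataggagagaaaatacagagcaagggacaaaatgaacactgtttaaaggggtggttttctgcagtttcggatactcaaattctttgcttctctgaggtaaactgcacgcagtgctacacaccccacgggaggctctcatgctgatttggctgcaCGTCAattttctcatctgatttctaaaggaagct
Nr4a3: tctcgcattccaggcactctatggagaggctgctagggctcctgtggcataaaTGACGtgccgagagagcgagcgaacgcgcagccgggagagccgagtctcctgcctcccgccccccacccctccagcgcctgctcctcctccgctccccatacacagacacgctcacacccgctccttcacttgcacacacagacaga
In Dio2 the cores of both strands overlap to make the whole palindrome TGACGTCA. The core stood in 14 of 18 windows (77.8%) of the 14 tested list genes with an entry, in 6 of 10 windows (60%) of the 7 that fell, and in 20.8% of all windows. The whole palindrome stood in 1 of those 18 windows (5.56%), that of Dio2, and in 1.79% of all windows. The share among the windows of the fallen genes was below that among the windows of the list. These are shares of windows and not of genes, and Pde4b alone gave 4 of the 10.

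**Figure D2:**
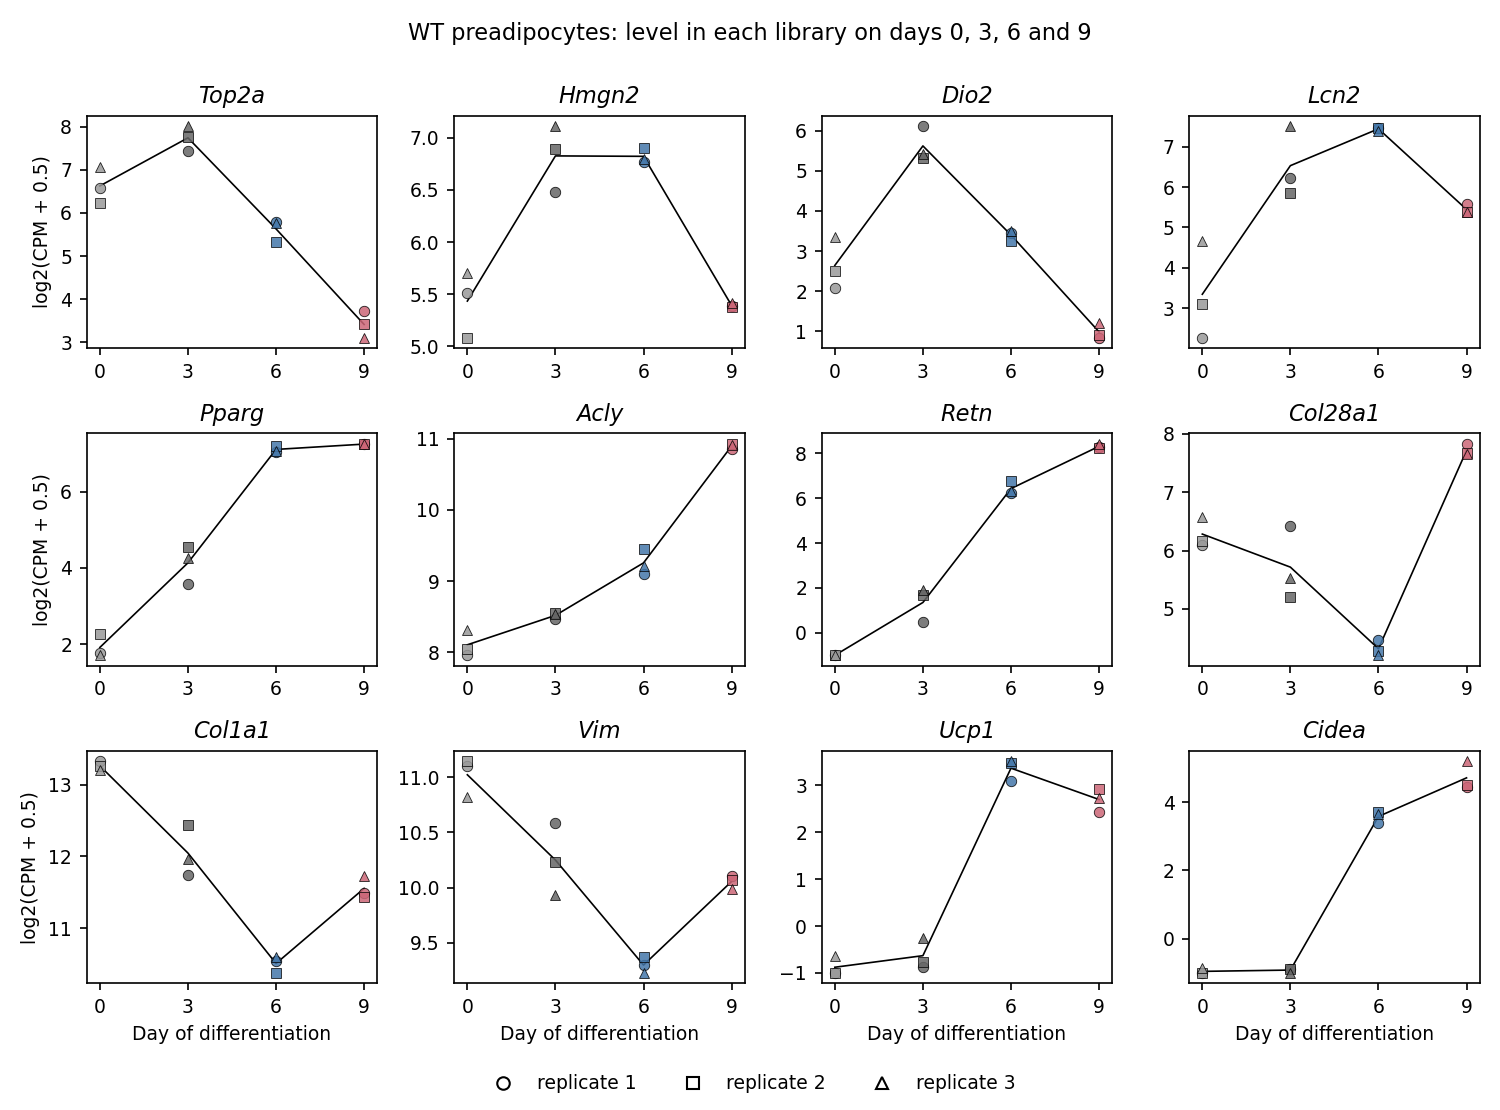
Level in each WT preadipocyte library on days 0, 3, 6 and 9 as log2 of CPM plus 0.5 (vertical axes, each panel on its own scale), with 1 symbol for each of the 3 replicates and a line through the means, for 12 genes. Top2a and Dio2 peaked on day 3 and were lowest on day 9, Pparg changed little after day 6, Acly and Retn went on rising, and Col28a1, Col1a1 and Vim turned upwards after day 6.

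Some general adipocyte markers rose between the days, while Pparg, Adipoq and Plin1 were not called. Pparg, the master regulator of adipogenesis, was at 131, 146 and 134 CPM on day 6 and at 150.1, 150.4 and 152 CPM on day 9 (log2 fold change 0.15, SE 0.06, adjusted p = 0.0999). Adipoq, which encodes adiponectin, was at 1168 ± 126 CPM and 1351 ± 34.1 CPM (adjusted p = 0.0883), and Plin1, a lipid droplet coat protein, at 814 ± 102 CPM and 709 ± 36.4 CPM (adjusted p = 0.161). Cebpa, the partner of PPARγ, was at 429 ± 36.7 CPM and 292 ± 9.09 CPM, a log2 difference of -0.55 below the fold threshold. Of 29 general adipocyte markers tested, 11 rose (against 11.2% of all genes), none fell and 18 were not called, and the list median was 0.22. Sncg, γ-synuclein, a protein abundant in white fat, rose from 1.19, 1.7 and 1.81 CPM to 27, 30.9 and 22.9 CPM (17.3-fold, log2 fold change 4.11, SE 0.18, adjusted p = 6.59e-06). Cidec, which enlarges lipid droplets, rose from 735, 1192 and 779 CPM to 2066, 2129 and 2221 CPM, 2.38-fold (adjusted p = 0.00212). Of 39 transcription regulators of adipogenesis and browning tested, 3 rose (Klf4, Rxrg and Mecom) and 1 fell (Esrrg).

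Of 23 genes of fatty acid and triglyceride synthesis tested, 10 rose, 2 fell and 11 were not called, with a list median of 0.53. Acly, which makes cytosolic acetyl-CoA from citrate, was at 551, 700.3 and 591 CPM on day 6 and at 1849, 1945 and 1916 CPM on day 9, every day 9 library above every day 6 library (3.12-fold, log2 fold change 1.64, SE 0.10, adjusted p = 1.91e-05). Me1, the malic enzyme that supplies NADPH, rose 2.76-fold to 1189 ± 75.2 CPM, and Thrsp, a T3-responsive lipogenic protein, rose 2.75-fold to 1088 ± 66.5 CPM. Fasn, fatty acid synthase, rose from 2336, 3175 and 2830 CPM to 4456, 4492 and 5154 CPM (1.7-fold, adjusted p = 0.00163). Scd1, the stearoyl-CoA desaturase, was at 25183 ± 3598 CPM and 37412 ± 2470 CPM, at 1.49-fold just under the fold threshold (adjusted p = 0.00667), and was called with the replicate number as a block. The fallen members act at the steps of triglyceride assembly: Gpat3, which adds an acyl chain to glycerol 3-phosphate, fell from 223, 247 and 247 CPM to 97.4, 103 and 103 CPM (2.35-fold, adjusted p = 1.2e-05). Dgat2, which adds the last chain, fell 1.88-fold. Cholesterol genes gave 3 higher and 2 lower calls among 25, near the shares over all genes. Hmgcs1 was at 511 ± 28.3 CPM on day 6 and 333 ± 1.57 CPM on day 9. The fall of Hmgcs1 dropped under the fold threshold without day 6 replicate 2 and under limma-voom with quantile normalization.

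Secreted adipocyte factors were among the risers. Of 21 adipokines tested, 9 rose and 1, Apln, fell. Retn, which encodes resistin, was at 74, 107 and 78.4 CPM on day 6 and at 307, 301 and 342 CPM on day 9 (3.68-fold, log2 fold change 1.88, SE 0.15, adjusted p = 0.000126). Cfd, adipsin, rose from 13.2, 26.4 and 16.9 CPM to 89.9, 89.7 and 99.3 CPM (4.96-fold, adjusted p = 0.00145). Angptl8, an insulin-induced inhibitor of lipoprotein lipase activity, rose 7.1-fold from a low mean of 0.67 ± 0.0799 CPM, and C1qtnf1 rose 3.96-fold to 23.1 ± 2.36 CPM. Lep, leptin, had 0 to 6 counts in the 6 libraries and was too low to test. Irs3, an insulin receptor substrate of rodent adipocytes, rose 6.59-fold to 9.77 ± 1.01 CPM, and Slc2a4, the insulin-regulated glucose transporter GLUT4, rose 1.56-fold to 209.7 ± 15.7 CPM, a call that was lost without day 6 replicate 1 or day 9 replicate 3 and in 1 fit over all WT days.

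Brown and beige markers split. Of 30 tested, 9 rose, 5 fell and 16 were not called, with a list median of 0.20. Ucp1, the uncoupling protein, was at 8.11, 10.7 and 10.9 CPM on day 6 and at 4.91, 7.13 and 6.15 CPM on day 9, after 0.157 CPM on day 3. The days did not overlap and the fall was 1.62-fold (log2 fold change -0.70, SE 0.17, adjusted p = 0.0139), but it lost its call without day 6 replicate 3 or day 9 replicate 1 and in 1 fit over all WT days. Cidea, a lipid droplet protein of brown fat, rose instead, from 10.05, 12.5 and 12 CPM to 21.1, 22.2 and 36.1 CPM (2.31-fold, adjusted p = 0.00661). Cpt1b, the muscle and brown fat carnitine palmitoyltransferase, rose from 36.6, 48.3 and 40.3 CPM to 112, 107 and 117 CPM (2.7-fold, adjusted p = 3.42e-05), and P2rx5, a surface marker of brown adipocytes, rose 4.36-fold to 16.7 ± 1.17 CPM. Dio2, Esrrg, Fabp3 and Cited1 were the other fallen members. Ppargc1a, the coactivator of mitochondrial biogenesis, was at 25.1 ± 1.07 CPM and 21.7 ± 1.25 CPM (adjusted p = 0.0598), and Prdm16 at 5.71 ± 1.26 CPM and 4.8 ± 1.04 CPM (adjusted p = 0.396). Elovl3, a fatty acid elongase of brown fat, was at 171 ± 41.4 CPM and 269 ± 19.4 CPM (1.58-fold, adjusted p = 0.0232) and lost its call without day 6 replicate 1, day 6 replicate 3, day 9 replicate 2 or day 9 replicate 3, in 1 fit over all WT days and with no filter on low counts.

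Mitochondrial genes as groups stayed near their day 6 level. Of 81 nuclear-encoded respiratory chain and ATP synthase subunits, 2 were called, both higher: Cox6a2 (log2 fold change 2.38) and Cox4i2 (1.51), tissue-restricted forms of cytochrome oxidase subunits. Cox6a2 was near the floor, at means of 0.215 CPM on day 6 and 1.14 CPM on day 9. Its libraries held at most 6 counts on day 6 and at most 25 on day 9. Such a gene may have passed the filter through its day 9 level, so its call adds little. The list median was 0.15 and the remaining members lay between -0.29 and 0.55. None of 13 mitochondrially encoded and none of 78 mitochondrial ribosomal protein genes was called, at medians of -0.14 and -0.07. Of 24 β-oxidation genes, 3 rose and 2 fell, with Acot2, a mitochondrial acyl-CoA thioesterase, rising from 8.47 ± 1.06 CPM to 33.2 ± 2.03 CPM (3.94-fold, adjusted p = 1.2e-05). Cytosolic ribosomal protein genes were all below 0 on the log2 scale, from -0.69 to -0.06 with a median of -0.23, and 1 of 76 was called, Rps2.

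**Figure D3:**
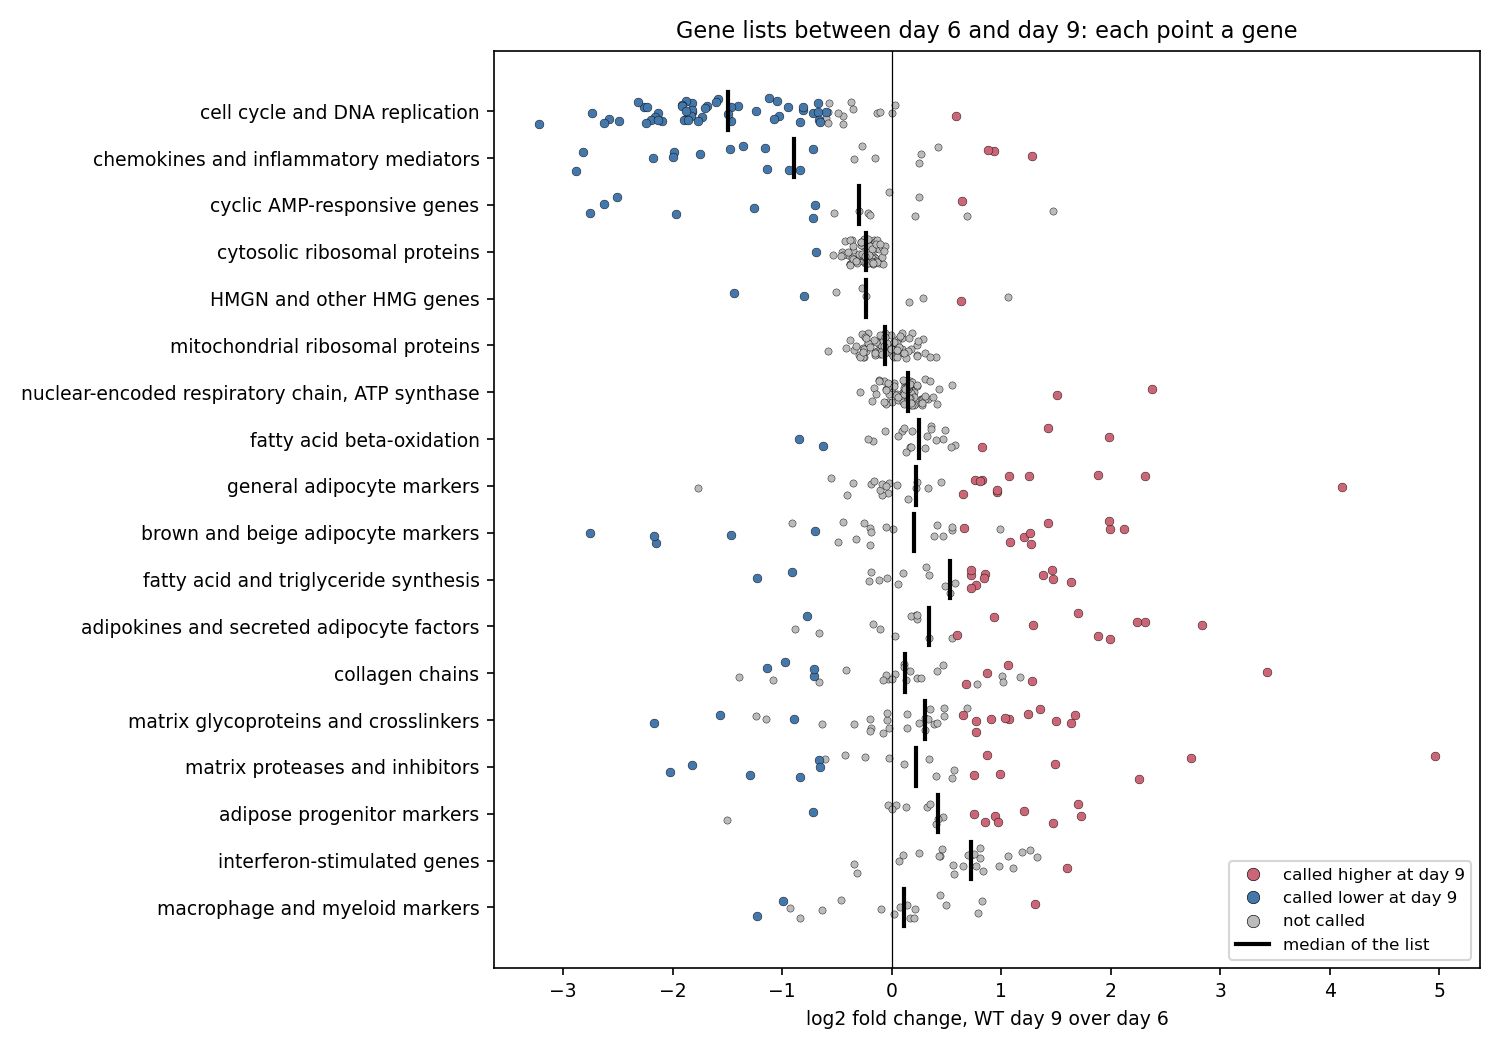
Log2 fold change between day 9 and day 6 (horizontal axis) for the tested members of 18 gene lists (vertical axis), 1 point a gene, red where called higher, blue where called lower and grey where not called, with the list median as a black bar. The cell cycle list has its median at -1.49 and the chemokine list at -0.89, while collagens and brown and beige markers spread to both sides.

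Of 22 chemokines and inflammatory mediators tested, 13 fell, 3 rose (Csf1, Lif and Hp) and 6 were not called, with a list median of -0.89. Saa3, an acute-phase serum amyloid protein of fat, was at 1517, 2433 and 1914 CPM on day 6 and at 239, 328 and 256 CPM on day 9 (7.08-fold lower, log2 fold change -2.82, SE 0.21, adjusted p = 0.000169). Lcn2, lipocalin 2, which binds bacterial siderophores, fell from 176, 176 and 168 CPM to 47.3, 41 and 41.1 CPM (log2 fold change -2.00, SE 0.07, adjusted p = 2.94e-06), from the highest of its 4 days. Cxcl14 fell 7.38-fold to 5.51 ± 1.06 CPM, beside means of 570.0 CPM on day 0 and 382 CPM on day 3, a step that was not called. Il33, an alarmin of stromal cells, fell 4.52-fold and Cxcl12, a chemokine of stromal progenitors, 2.2-fold. Csf1, the growth factor of macrophages, rose from 189, 171 and 179.8 CPM to 369.6, 306 and 314 CPM (1.84-fold, adjusted p = 0.000133).

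Matrix genes went in both directions, with both chains of the fibrillar collagen I among the risers. Col1a1 was at 1491, 1327 and 1550 CPM on day 6 and at 2879, 2778 and 3399 CPM on day 9, no library overlapping (2.08-fold, log2 fold change 1.06, SE 0.10, adjusted p = 0.000134), well under its 9850 CPM of day 0. Col1a2 rose 1.6-fold to 3526 ± 262 CPM, a call that fell under the fold threshold without day 6 replicate 2. Col3a1, the second fibrillar collagen of loose tissue, was at 8370 ± 905 CPM and 6218 ± 206 CPM, a log2 difference of -0.42 that was not called. The basement membrane chain Col4a1 fell from 4770, 4331 and 4980 CPM to 3041, 2509 and 3008 CPM (1.64-fold, adjusted p = 0.000883), and Col15a1, which lies next to basement membranes, fell 2.2-fold. In all, 5 of 30 collagen chains rose and 4 fell (against 11.2% and 6.07% of all genes). Of 37 matrix glycoproteins, proteoglycans and crosslinking enzymes, 11 rose and 3 fell. Eln, elastin, rose from 5.97, 6.66 and 5.09 CPM to 19.4, 18.3 and 18.7 CPM (3.19-fold, adjusted p = 3.37e-05), and Mfap5, a microfibril protein, rose 2.83-fold to 129 ± 8.86 CPM. Fbln1, fibulin 1, fell 2.97-fold to 77.9 ± 3.21 CPM. Among matrix proteases and their inhibitors, 7 of 22 rose and 6 fell, with Mmp3, stromelysin, falling from 206, 186 and 221 CPM to 56.6, 65.8 and 49.996 CPM and Adamts15, a versican-cleaving protease, from 350.4, 257 and 316 CPM to 86.4, 64.6 and 74.8 CPM.

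Progenitor genes rose in part. Of 19 progenitor markers, 8 rose and 1, Thy1, fell, with a list median of 0.42. Pdgfrb, the PDGF receptor of mural and progenitor cells, rose from 83.2, 62.4 and 72.3 CPM to 149, 133 and 133 CPM (1.92-fold, adjusted p = 0.000289), while its day 0 mean was 581 CPM. Pdgfra, which marks adipocyte progenitors, was at 354 ± 137 CPM and 345 ± 55.2 CPM with overlapping libraries (adjusted p = 0.949). Vim, vimentin, rose 1.7-fold to 1064 ± 42.9 CPM, and Ahnak2, a large scaffold protein, rose 3.16-fold to 97.4 ± 4.96 CPM, both below their day 0 means of 2090 CPM and 224 CPM. The contractile list of 19 genes gave 3 higher and 2 lower calls, and its median of 0.45 became 1.03 without day 6 replicate 1 and 0.17 without day 9 replicate 1, the libraries with the most Acta2 of their days.

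The turn of these genes after day 6 was compared with the first step of the same cells, from day 0 to day 3, which uses other libraries. In that step 1478 of 15139 genes (9.76%) rose and 1852 (12.2%) fell. Over the 14042 genes tested in both steps, 591 of the 1347 genes that rose late had fallen early (43.9% of the late risers and 37.3% of the early fallers, beside 11.3% of all genes), and 75 (5.57%) had risen early. Of the 856 genes that fell late, 421 had risen early (49.2% of the late fallers and 29.5% of the early risers, beside 10.2% of all genes), and 22 (2.57%) had fallen early. Calls in opposite directions were thus more frequent than calls in the same direction. Hspb7 went from 139 CPM on day 0 through 15.2 CPM on day 3 and 10.4 CPM on day 6 to 99.6 CPM on day 9.

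Secreted signals and their binding proteins changed one by one. Of 23 TGF-β and BMP pathway genes, 7 rose and 2 fell (against 11.2% and 6.07% of all genes). Grem1, a BMP antagonist, rose from 1.74, 2.56 and 3.49 CPM to 12.3, 13.7 and 12.7 CPM (5.0-fold, adjusted p = 0.000136), far below its 616 CPM of day 0. Bmp3, a BMP that opposes the others, rose 4.01-fold to 7.5 ± 0.832 CPM. Of 10 IGF genes, 3 fell and 2 rose. Igfbp4, a binding protein that holds IGF away from its receptor, fell from 393, 338 and 359 CPM to 141, 134 and 132 CPM (2.66-fold, adjusted p = 1.2e-05), and Igf1 itself fell 1.87-fold to 77.7 ± 2.68 CPM. Wnt genes gave 2 higher and 3 lower calls among 15, with Sfrp2, a secreted Wnt antagonist, at 29 ± 3.78 CPM and 77.5 ± 15.6 CPM. Of 12 hypoxia-responsive genes 5 rose, among them Adm, the vasodilator peptide adrenomedullin, from 87.9, 57.7 and 58.2 CPM to 358, 279.6 and 283 CPM (4.55-fold, adjusted p = 0.0005), and 1, Hilpda, fell. Among 19 clock genes, 4 rose and 1 fell. Hours of collection are not given in the sources used here.

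Interferon-stimulated genes had a list median of 0.72 with 1 call among 25. Gbp2, an interferon-induced GTPase, was at 6.88, 4.61 and 7.49 CPM on day 6 and at 23.6, 17.3 and 16.5 CPM on day 9 (3.04-fold, adjusted p = 0.000928). Their summed level was 570.1 to 698.7 CPM on day 6 and 681.8 to 1237 CPM on day 9, so that the days overlapped. The median became -0.10 without day 9 replicate 1 and 1.19 without day 6 replicate 3.

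Glucocorticoid-responsive genes gave 2 higher calls among 17, the metallothionein Mt1 being at 835, 1054 and 850.0 CPM on day 6 and at 639, 572 and 615 CPM on day 9 without a call. The higher calls of this list, and of the antioxidant, glycolysis and insulin signalling lists below, lay near the 11.2% of all genes. Of 7 T3-responsive genes, 3 rose and 1 fell, and of 26 PPAR targets, 7 rose and 3 fell. The integrated stress response list gave 3 higher calls and 1 lower call among 19, and the unfolded protein response list none among 16. Antioxidant genes gave 3 and 1 among 25, TCA cycle genes 2 and 0 among 25, glycolysis genes 2 and 0 among 18, lipid droplet genes 7 and 1 among 21, lysosome and autophagy genes 2 and 1 among 23, imprinted growth genes 3 and 3 among 12, insulin signalling genes 2 and 0 among 18, creatine and calcium cycling genes 2 and 2 among 7, and proteasome subunits 2 and 0 among 38, both of the immunoproteasome (Psmb8 and Psmb9).

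The cultures also held macrophage transcripts, and several of the genes with the largest rise are known from osteoclasts. No osteoclast list was tested, and these genes are grouped here after their values were seen. Mmp9, a gelatinase of osteoclasts and macrophages, was at 44.6, 25 and 27.8 CPM on day 6 and at 719, 1333 and 963 CPM on day 9 (31.1-fold, log2 fold change 4.96, SE 0.37, adjusted p = 0.000421). Acp5, the tartrate-resistant acid phosphatase used to stain osteoclasts, rose from 7.2, 3 and 2.19 CPM to 194, 334 and 211 CPM (59.7-fold, log2 fold change 5.90, SE 0.53, adjusted p = 0.0012). Ctsk, cathepsin K, which degrades bone collagen, rose from 26.1, 21.3 and 23.4 CPM to 226, 423 and 257 CPM (12.9-fold, log2 fold change 3.69, SE 0.29, adjusted p = 0.000468). Its means had been 163 CPM on day 0 and 69.8 CPM on day 3, while those of Mmp9 were 4.7 and 4.31 CPM. In each of the 3 genes the day 9 libraries were above all day 6 libraries, and replicate 2 of day 9 was the highest. Dcstamp, which drives the fusion of osteoclast precursors, was at 0.119, 0 and 0 CPM on day 6 and at 5.77, 10.2 and 4.73 CPM on day 9 (adjusted p = 0.000347). Ocstamp, a second fusion gene, was at 0.0791, 0 and 0.0842 CPM and then at 7, 14.4 and 8.15 CPM (adjusted p = 0.000132). No fold is given for these 2 genes, whose day 6 counts were 3 or fewer in each library. They passed the filter only through their day 9 libraries, where they are high, so their adjusted p-values add no support.

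Slc9b2, a sodium-proton exchanger of osteoclasts, rose 31.7-fold from 0.99 ± 0.304 CPM to 31.4 ± 10.5 CPM, and Clec12a, an inhibitory lectin of myeloid cells, 47.9-fold from 0.483 ± 0.244 CPM to 23.2 ± 6.82 CPM. Atp6v0d2, Nfatc1 and Tnfrsf11a were looked up after these values were seen. Atp6v0d2, a proton pump subunit of osteoclasts, went from 3.36 ± 0.453 CPM to 37.4 ± 14.2 CPM (11.3-fold), Nfatc1, the factor that drives osteoclast formation, from 16 ± 0.428 CPM to 43.2 ± 9.37 CPM (2.72-fold), and Tnfrsf11a, the RANK receptor, from 13.2 ± 2.86 CPM to 28.1 ± 9.67 CPM (2.15-fold, adjusted p = 0.0365).

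Beside them, the macrophage list as a whole did not rise. Of 18 markers tested, 1 rose, 2 fell and 15 were not called, with a median of 0.11 that lay between -0.09 and 0.30 when single libraries were left out. Summed over the list, the level was 8698 to 14090 CPM on day 6 and 4672 to 9308 CPM on day 9. Adgre1, which encodes the macrophage antigen F4/80, was at 109, 159 and 160.3 CPM and at 111, 196 and 172 CPM (adjusted p = 0.651), and Cd68, a lysosomal protein of macrophages, at 131, 222 and 210.0 CPM and at 137, 233 and 199 CPM (adjusted p = 0.961). Both overlapped between the days and were lowest in replicate 1. Their means on day 3 had been 1.56 CPM and 5.15 CPM. Mpeg1, perforin-2, rose 2.48-fold to 171 ± 34 CPM. Mrc1, the mannose receptor CD206, fell 2.34-fold to 941 ± 372 CPM (adjusted p = 0.043), and C1qa, a complement subunit, fell 1.99-fold to 431 ± 88.3 CPM (adjusted p = 0.0449). Both falls lost their call without several of the libraries, among them each of day 6 replicates 2 and 3. Retnla, a secreted marker of alternatively activated macrophages, fell 10.9-fold from 5.01 ± 0.345 CPM to 0.447 ± 0.165 CPM (adjusted p = 4.08e-05). The part of myeloid cells in the change of Mmp9, Ctsk and the chemokines was not tested.

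**Figure D4:**
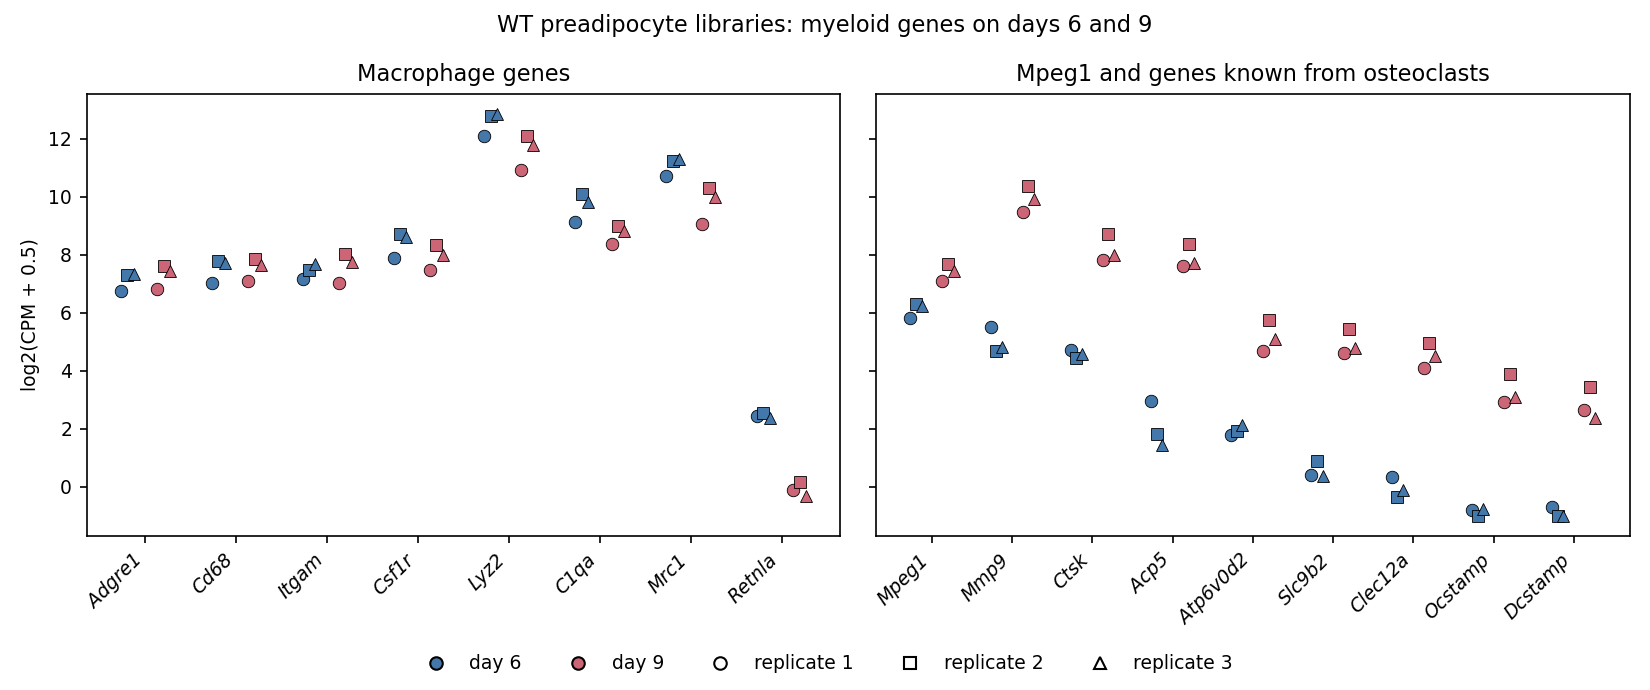
Level in each WT library of day 6 (blue) and day 9 (red) as log2 of CPM plus 0.5 (vertical axis), with 1 symbol for each replicate. The left panel holds 8 macrophage genes, and the right panel Mpeg1, the myeloid gene Clec12a and genes known from osteoclasts. Adgre1, Cd68, Itgam and Csf1r overlap between the days, while Mmp9, Ctsk, Acp5 and the genes to their right do not.

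Markers of other cell types were low. No lymphocyte and no erythroid marker passed the filter, Hbb-bs and the epithelial gene Epcam had 0 counts in all 6 libraries, and summed endothelial markers were at 5.849 to 12.1 CPM on day 6 and 10.54 to 15.6 CPM on day 9. Where such low genes were tested, several rose (against 11.2% of all genes): 2 of 7 endothelial, 2 of 6 Schwann cell, 2 of 2 epithelial and 2 of 2 mesothelial markers. Only 2 of 8 listed epithelial and 2 of 4 listed mesothelial markers passed the filter. Summed mesothelial markers were at 0.505 to 0.591 CPM on day 6 and 1.994 to 3.414 CPM on day 9. A gene this low on day 6 may have passed the filter through its day 9 level, so these counts do not describe the lists. Of 5 pericyte markers 2 rose and 1 fell, Cspg4 (NG2) going from 3.49 ± 0.77 CPM to 18.9 ± 5.17 CPM. Of 2 skeletal muscle markers 1 rose and 1 fell.

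The same step in DKO preadipocytes, day 9 against day 6, went the same way for nearly all genes that moved in WT cells. Of 1567 genes that rose in WT cells and were tested in DKO cells, 1540 (98.3%) had a log2 fold change above 0 there, with medians of 1.07 in WT and 0.90 in DKO cells. Of 863 that fell, 843 (97.7%) were below 0, with medians of -0.94 and -0.73. These genes were chosen by their WT call, which alone can make the WT medians the larger ones. The share with the same sign over all genes was not taken. Among 15410 genes, edgeR without a replicate block called the interaction of genotype and day for 0 (0%), with 847 at an unadjusted p below 0.05, while DESeq2 called 27. With the replicate number as a block the interaction was called for 41 genes, 14 above and 27 below WT. Cpt1b was among them (DKO minus WT -1.18 on the log2 scale, adjusted p = 0.0146), as were P2rx5 (-1.18, adjusted p = 0.0461) and Acot2 (-0.81, adjusted p = 0.0432), each of which rose less in DKO than in WT cells. The cell cycle list had a median of -1.12 in DKO cells and the interferon list one of 1.72.

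WT MEFs between day 8 and day 12 shared the direction of most genes, while the size of the change differed for many and Mmp9 and Ucp1 went opposite ways. Of 1542 genes that rose in the preadipocytes and were tested in MEFs, 1351 (87.6%) were above 0, and of 865 that fell, 764 (88.3%) were below 0. Here too the share over all genes was not taken. The interaction of cell type and late step was called for 1126 of 16100 genes, above 0 (higher in preadipocytes) for 480 (2.98%) and below 0 for 646 (4.01%). General adipocyte markers had a median log2 fold change of 1.57 in MEFs beside 0.22 in preadipocytes, and brown and beige markers 1.5 beside 0.20. Ucp1 had a log2 fold change of 1.81 in MEFs and -0.70 in preadipocytes (difference -2.54, SE 0.63, adjusted p = 0.0271), and Cidea 4.75 and 1.21 (difference -3.57, SE 0.66, adjusted p = 0.00699). Mmp9 had -1.92 in MEFs and 4.96 in preadipocytes (difference 6.85, SE 0.60, adjusted p = 0.000252), and Ctsk 0.82 and 3.69 (difference 2.83, SE 0.27, adjusted p = 0.000293). The cell cycle list had a median of -2.02 in MEFs, and the interaction was called above 0 for 16 of its genes and below 0 for 1, Pbk. Rrm2 and Prim1, which make deoxynucleotides and replication primers, were among the 16 (log2 fold changes of -2.25 and -2.18 in MEFs, and of -0.13 and -0.44 in preadipocytes). Top2a and Dio2 changed by similar amounts, at -2.50 and -2.95 in MEFs, and their interactions were not called (adjusted p = 0.566 and 0.811). The days and media of the 2 cell types differ, so cell type and timing cannot be told apart in this comparison.

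**Figure D5:**
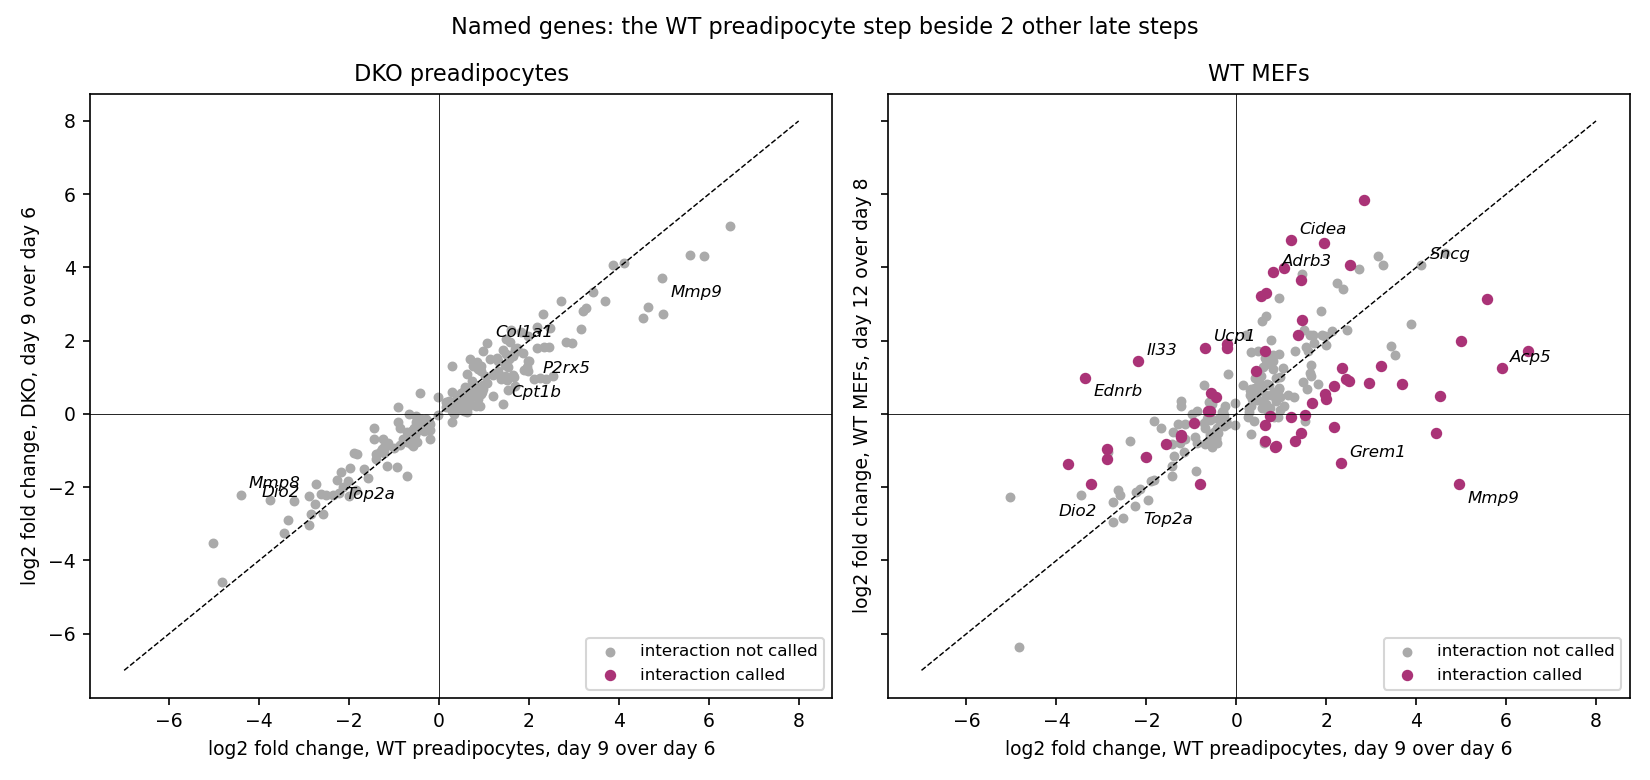
Log2 fold change of the named genes in DKO preadipocytes, day 9 over day 6 (left, vertical axis), and in WT MEFs, day 12 over day 8 (right, vertical axis), against that in WT preadipocytes, day 9 over day 6 (horizontal axes), 1 point a gene, purple where the interaction was called and the dashed line marking equal changes. The DKO points follow the line with no call in the fit without a replicate block, while Mmp9 and Acp5 lie below it in MEFs and Cidea, Ucp1 and Il33 above it.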

How the data were processed

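RNA was measured in 48 libraries of 50 bp paired-end reads, of which the WT preadipocyte libraries of days 6 and 9 are reported here. Per the labels and the study's methods, the authors aligned the reads to mm10 with STAR (2.7.0f) after trimming with cutadapt (1.18) and deposited RSEM (1.3.0) expected counts for 55450 genes, which spread reads shared by near-identical genes over them. The labels name polyA RNA and the methods a total RNA kit. The expected counts were rounded here to whole numbers, and 14963 genes that passed filterByExpr were tested with edgeR (4.0.16, R 4.3.3), robust quasi-likelihood test, TMM scaling and Benjamini-Hochberg adjustment, without a block. Genes with an adjusted p below 0.05 and a fold of at least 1.5 were called. CPM were TMM-scaled over the 12 WT preadipocyte libraries. The genotype and cell type interactions were fitted over the libraries of both groups, and the day 3 against day 0 step on its own. The script was tested on simulated counts.

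Named genes were protein-coding genes whose libraries did not overlap between the days: the 12 with the smallest p and the 10 with the largest change in each direction (mean of at least 5 CPM on a day), up to 4 members of each of 51 gene lists, and 33 fixed genes whatever their values. Further list members are named beside their list's counts, and were chosen after their values were seen. The members and lists were chosen with earlier results of these data known.

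Same-numbered libraries of days 6 and 9 deviated together from their day means (correlations of 0.531, 0.334 and 0.185 over 13371 genes). Day 6 replicate 2 also correlated with day 9 replicate 3 at 0.211, and day 6 replicate 3 with day 9 replicate 2 at 0.152. The main fits did not use the replicate numbers as pairs, and a fit with the replicate number as a block was an alternative. Others were DESeq2 (1.42.0), limma-voom (limma 3.58.1) with quantile normalization, library size scaling, other filters and call rules, 1 fit over all WT days, and each library left out. Promoter sequences came from RefSeq (GRCm38.p6). A few genes that met these rules are not reported here.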

Additional observations from a re-analysis of the deposited data

Results flagged for a closer look

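The late step differed between WT preadipocytes (day 9 against day 6) and WT MEFs (day 12 against day 8), by edgeR's test of the interaction, for 1126 genes. Differences are given as preadipocytes minus MEFs on the log2 scale, for named genes picked out by that test. Of the genes with the largest rise in preadipocytes, Mmp9 was above MEFs at 6.85, Mt3 at 4.92, Kcnn4 at 4.74, Acp5 at 4.62, Grk3 at 4.02, Slc9b2 at 2.96 and Clec12a at 2.40, while the differences of Dcstamp, Ocstamp and Pira2 were not called. On day 6, Kcnn4, Mt3, Grk3 and Clec12a had at most 4, 11, 13 and 19 counts in a preadipocyte library, so the sizes of their differences are uncertain. Dcstamp and Ocstamp did not pass the filter in the MEF step alone, so a difference between the cell types could not be measured for them. The matrix and Wnt signalling genes Itgbl1 (1.86), Adamtsl4 (1.36) and Dixdc1 (1.04) were above MEFs as well. Genes of thermogenesis and fatty acid oxidation were below MEFs, with Cidea at -3.57, Cox7a1 at -2.72, Ucp1 at -2.54, Ppara at -2.14 and Ppargc1a at -2.03. The others below MEFs were Ednrb (-4.38), Alpl (-2.41), Cxcl14 (-1.96), Pcsk1 (-1.68), Pbk (-1.34), Lcn2 (-0.85) and Cd320 (-0.67). The days and media of the 2 cell types differ, and cell type and timing cannot be told apart.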

How the results depend on the processing

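Of the 161 named genes that were called, 129 kept the call under all 13 alternatives, 18 others gained one under at least 1, and none changed direction. Without a fold threshold 5509 genes were called (2917 higher, 2592 lower), and with a change of at least 1 on the log2 scale either way, 1415 (971 and 444), as fewer or more genes then meet the rule. Leaving out 1 library at a time gave 2231 to 2599 calls (1440 to 1678 higher, 772 to 939 lower). For day 3 against day 0 the range was 2692 to 3440 (1167 to 1539, and 1501 to 1901). The genotype by day interaction was called for 0 genes by edgeR, for 27 by DESeq2 (2 above, 25 below) and for 41 in the paired fit with the replicate block (14 above, 27 below), and leaving out libraries gave 0 to 13 (0 to 1 above, 0 to 13 below), with 13 without WT day 6 replicate 2, 3 without DKO day 9 replicate 2 and 1 without DKO day 6 replicate 2. The cause was not tested. The cell type interaction ranged from 711 to 1666 (304 to 773 above, 400 to 893 below). The replicate block changed the call of 5 named genes, Scd1, Ifih1, Ctss, Abcc9 and Ear2, and of no other named gene. Limma-voom called 1463 genes higher and 1166 lower.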
